A study of Mus musculus with 12 samples.

Results

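The guanylate-binding proteins (GBP) and the immunity-related GTPases (IRG) are families of GTP-hydrolysing enzymes that mouse cells make in response to interferon. The 10 genes described here were chosen by gene symbol, 6 of the GBP family (Gbp2, Gbp2b, Gbp3, Gbp4, Gbp5 and Gbp7) and 4 of the IRG family (Irgm1, Irgm2, Igtp and Iigp1), out of 55011 gene symbols in the count table. All 10 were in the table and all 10 passed the filter on low counts, as did 13295 genes in total.

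RNA was measured by a Smart-seq protocol in regulatory T cells (Treg), the CD4 T cells that restrain immune responses under the transcription factor Foxp3. The cells came from male C57BL/6 mice aged 21 days and were sorted as DAPI-negative, TCRβ+, CD4+, GFP+ and CD25+. The 12 libraries formed 4 groups of 3. Spleen WT and lung WT cells carried Foxp3.ires.GFP, an intact gene with a green reporter. Spleen ∆Foxp3 cells carried, per the sample labels, ∆Foxp3.EGFP.iCre together with R26.YFP, and lung ∆Foxp3 cells ∆Foxp3.ires.GFP, whereas the extraction protocol names ∆Foxp3.ires.GFP for both tissues. Any comparison of the ∆Foxp3 groups between tissues therefore sets a tissue against another tissue and, if the sample labels hold, an allele against another allele, and these cannot be told apart. If those labels hold, the spleen genotype difference also carries the iCre allele and R26.YFP. The same then applies to any comparison of the spleen and lung genotype differences. Spleens were dissociated mechanically and lungs with enzymes followed by magnetic enrichment of CD4 T cells. The labels do not say that the libraries of a group came from different mice, so each p-value sets a difference against a spread that may be partly or wholly technical.

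Interferon gamma binds the receptor made of Ifngr1 and Ifngr2, and the kinases Jak1 and Jak2 then pass the signal on to DNA at the gamma-activated site (GAS). Type I interferons bind Ifnar1 and Ifnar2 and activate a complex that holds Stat2 and Irf9 and binds the interferon-stimulated response element (ISRE); Irf1, itself an interferon target, binds similar letters. GBP proteins assemble on the membranes of vacuoles that hold microbes and on the surface of bacteria, and work with inflammatory caspases. Among the IRG proteins, Irgm1, Irgm2 and Igtp sit on the cell's own membranes and hold effector IRG proteins such as Iigp1 inactive there, whereas Iigp1 loads onto the vacuoles of parasites. Irgm1 is also known for a role in autophagy and in the survival of CD4 T cells exposed to interferon gamma.

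The upstream sequences of 4 members are shown because these genes carried the clearest differences between the groups or lie side by side in the genome. Each is the stretch of 250 bases that ends 1 base before the RefSeq transcription start site (GRCm38.p6, the build also called mm10), on the + strand and written 5′ to 3′. Capitals mark letters that match the ISRE pattern (GAAA, any 2 bases, GAAA, which reads TTTC, any 2 bases, TTTC on the opposite strand) or the GAS pattern (TTC, any 3 bases, GAA, the same on both strands). The windows are chr3:142594597-142594846 for Gbp2b, chr3:142530086-142530335 for Gbp7, chr11:58199306-58199555 for Igtp and chr11:58214727-58214976 for Irgm2. None of these windows overlaps an annotated exon; that of Irgm2 lies in an intron of the longer Irgm2 gene model.
Gbp2b: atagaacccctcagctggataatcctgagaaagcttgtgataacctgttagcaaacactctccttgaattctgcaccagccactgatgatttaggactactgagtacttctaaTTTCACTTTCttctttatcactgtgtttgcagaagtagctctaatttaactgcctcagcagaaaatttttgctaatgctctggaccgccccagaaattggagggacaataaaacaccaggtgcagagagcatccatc
Gbp7: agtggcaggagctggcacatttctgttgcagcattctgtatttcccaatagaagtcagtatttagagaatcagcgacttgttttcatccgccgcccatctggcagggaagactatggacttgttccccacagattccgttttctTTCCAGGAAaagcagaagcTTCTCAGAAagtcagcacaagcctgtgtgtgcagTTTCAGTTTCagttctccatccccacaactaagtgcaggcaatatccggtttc
Igtp: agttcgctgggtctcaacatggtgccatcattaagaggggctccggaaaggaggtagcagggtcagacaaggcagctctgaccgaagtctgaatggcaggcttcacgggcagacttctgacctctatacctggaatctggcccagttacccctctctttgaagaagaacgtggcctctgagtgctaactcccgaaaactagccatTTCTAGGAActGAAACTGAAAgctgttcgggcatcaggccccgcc
Irgm2: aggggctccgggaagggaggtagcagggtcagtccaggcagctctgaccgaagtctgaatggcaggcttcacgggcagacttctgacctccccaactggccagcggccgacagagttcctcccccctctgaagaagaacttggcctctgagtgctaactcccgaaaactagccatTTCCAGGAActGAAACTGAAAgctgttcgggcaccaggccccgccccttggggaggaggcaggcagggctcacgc

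Promoter windows reaching from 250 bases before to 50 bases after the start site were in the RefSeq table for 8 of the 10 members (Gbp2, Gbp2b, Gbp3, Gbp5, Gbp7, Irgm1, Irgm2 and Igtp). All 8 held the ISRE letters in a window, and of all 32851 RefSeq promoter windows of the same length 3.44% held them. Genes are counted here for the members, which had 9 windows in all, and a further window of Gbp3 held neither ISRE nor GAS letters. The GAS letters were found in 4 of the 8, Gbp5, Gbp7, Igtp and Irgm2, against 8.3% of all windows. These 4 held both patterns, as did 0.454% of all windows. Gbp2b held a single match, an ISRE on the opposite strand from 137 to 128 bases before the start, and Gbp7 an ISRE 53 to 44 bases before it, with GAS letters beginning 106 and 87 bases before it. In Igtp the GAS letters lay 45 to 37 and the ISRE letters 34 to 25 bases before the start, with 2 bases between them. Irgm2 had the same arrangement, GAS at 75 to 67 and ISRE at 64 to 55 bases before its start, again 2 bases apart, and its window shared a run of 55 identical bases with that of Igtp. Of the other GBP, IRG and very large GTPase genes, listed together with Mx1 and Mx2, 6 of the 10 with a window held an ISRE. This compares with 14 of 26 genes of a type I interferon response list and 3 of 16 of an interferon gamma response list. These matches describe letters and were not tested for binding.

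**Figure D1:**
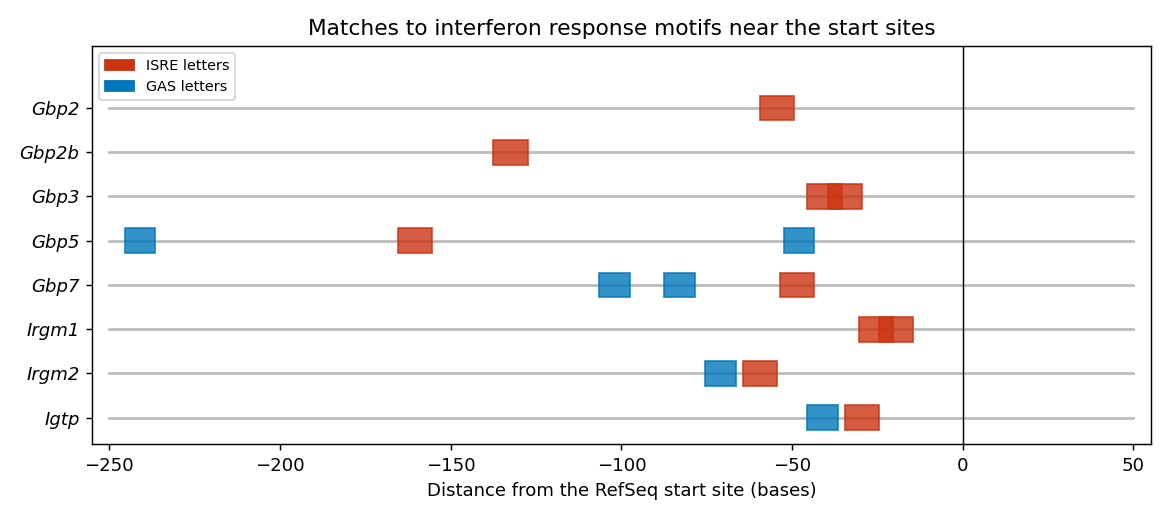
Positions of the ISRE (red) and GAS (blue) letters in the promoter windows of 8 members; the horizontal axis is the distance in bases from the RefSeq start site, and each grey line spans the window from 250 before to 50 after it. In Igtp and Irgm2 the GAS and ISRE letters are 2 bases apart.

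The 5 GBP genes Gbp5, Gbp7, Gbp3, Gbp2b and Gbp2 lie next to each other on chromosome 3, between 142493978 and 142638008 (GENCODE M21, mm10), a span of 144 kb. Gbp4 lies on chromosome 5 (105115767 to 105139586), Irgm1 on chromosome 11 (48861968 to 48871683), Igtp and Irgm2 also on chromosome 11 (58199556 to 58207591 and 58199618 to 58222782) and Iigp1 on chromosome 18. Igtp and Irgm2 share 162 exonic bases on the same strand, and 14.2% of the 38-base words of Igtp transcripts, the length of the reads, occur in other genes, mainly Irgm2. This share was 13.9% for Gbp7, mainly with the neighbouring Gm43802, 11.8% for Gbp4, 9.54% for Irgm2, 3.02% for Gbp2b (with Gbp2) and 1.41% to 4.86% for the other 5 members. Counts of Igtp, Irgm2, Gbp7 and Gbp4 therefore depend to that extent on how shared reads were assigned, a setting not given here.

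Library totals ran from 3958892 to 9025150 counts, and 3 counts, taken as the floor of detection, correspond to 0.332 to 0.758 CPM, the unit that puts libraries of unequal depth on 1 scale; floors cover counting error only, since the reads carry no molecular identifiers. Levels below are CPM after TMM scaling, a correction for library composition. Foxp3, the targeted gene, stood at 986 to 1090 CPM in spleen WT, 113 to 225 in spleen ∆Foxp3, 1322 to 1411 in lung WT and 188 to 467 in lung ∆Foxp3. The labels do not say which part of Foxp3 was deleted, so reads from a remaining part check nothing. Markers of Treg and T cells summed to 3821 CPM or more in every library. The libraries spleen WT 1, lung WT 1 and lung ∆Foxp3 3 stood apart, spleen WT 1 by a low share of 2 repeat-like transcripts, Gm10800 and Gm10801 (0.112%, against 0.743% to 2.94% in the other libraries), and the others by the most genes detected of all libraries (22981 and 23649). Lung ∆Foxp3 3 also had a mitochondrial share of 2.44%, against 1.40% to 1.63% in the other libraries, and lung WT 1 held the macrophage marker Lyz2 at 126 CPM and the epithelial marker Sftpc at 63.7, against 1.55 and 1.75 and 4.90 and 9.27 in the other lung WT libraries. In bulk RNA, fewer cells that express a gene and less RNA per cell cannot be told apart.

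Together, the 10 members took 1944 ± 132 CPM in spleen WT (mean ± SD, n = 3 in each group), 1384 ± 340 in spleen ∆Foxp3, 1774 ± 163 in lung WT and 1949 ± 359 in lung ∆Foxp3. By library, the sum was 2080, 1937 and 1816 CPM in spleen WT and 1166, 1776 and 1210 in spleen ∆Foxp3. It was 1957, 1644 and 1719 CPM in lung WT and 2151, 2162 and 1535 in lung ∆Foxp3. In spleen every ∆Foxp3 library lay below the WT libraries, with the second ∆Foxp3 library close under them, and in lung the genotypes overlapped because of the third ∆Foxp3 library.

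Within that sum the weights of the members differed between the genotypes. Gbp4 made up 17.5 ± 1.8% of the members' counts in spleen WT and 24.1 ± 2.7% in spleen ∆Foxp3, and 18.4 ± 1.4% and 26.0 ± 2.3% in the lung groups. Iigp1 made up 5.29 ± 0.33% and 7.82 ± 0.12% in spleen and 4.44 ± 0.57% and 9.52 ± 3.04% in lung, and Gbp2b 1.56 ± 0.46% and 0.0674 ± 0.105% in spleen and 2.58 ± 0.27% and 0.0346 ± 0.0450% in lung. Irgm2 stood at 5.46 ± 1.13% and 3.11 ± 0.12% of the members' counts in spleen WT and ∆Foxp3 and at 5.60 ± 0.26% and 3.76 ± 0.79% in lung. These shares were not tested, and a share moves when other members move.

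Per kilobase of merged exons, Igtp was the most abundant member in each group, at 203 ± 46.8 CPM per kb in spleen WT, 118 ± 33.3 in spleen ∆Foxp3, 141 ± 16.9 in lung WT and 175 ± 46.0 in lung ∆Foxp3, and its libraries overlapped those of no other member. Gbp2 came second in each group (53.0 to 90.5 CPM per kb as group means), overlapping the member that followed. In spleen WT the order after Gbp2 was Gbp7, Gbp4, Gbp3, Irgm1, Irgm2, Iigp1, Gbp2b and Gbp5, and Gbp4 was not separated from Gbp3, nor Irgm1 from Irgm2. In lung WT Gbp3 stood above Gbp4 and Irgm2 above Irgm1, the first pair overlapping and the second not. Gbp5 was lowest in both WT groups, at 2.57 ± 0.54 CPM per kb in spleen and 4.23 ± 1.60 in lung. In both ∆Foxp3 groups Gbp2b was lowest instead, at 0.298 ± 0.445 and 0.263 ± 0.343 CPM per kb. Iigp1 stood eighth and ninth in spleen WT and lung WT and sixth in lung ∆Foxp3, where it overlapped Gbp3, Irgm1 and Irgm2.

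**Figure D2:**
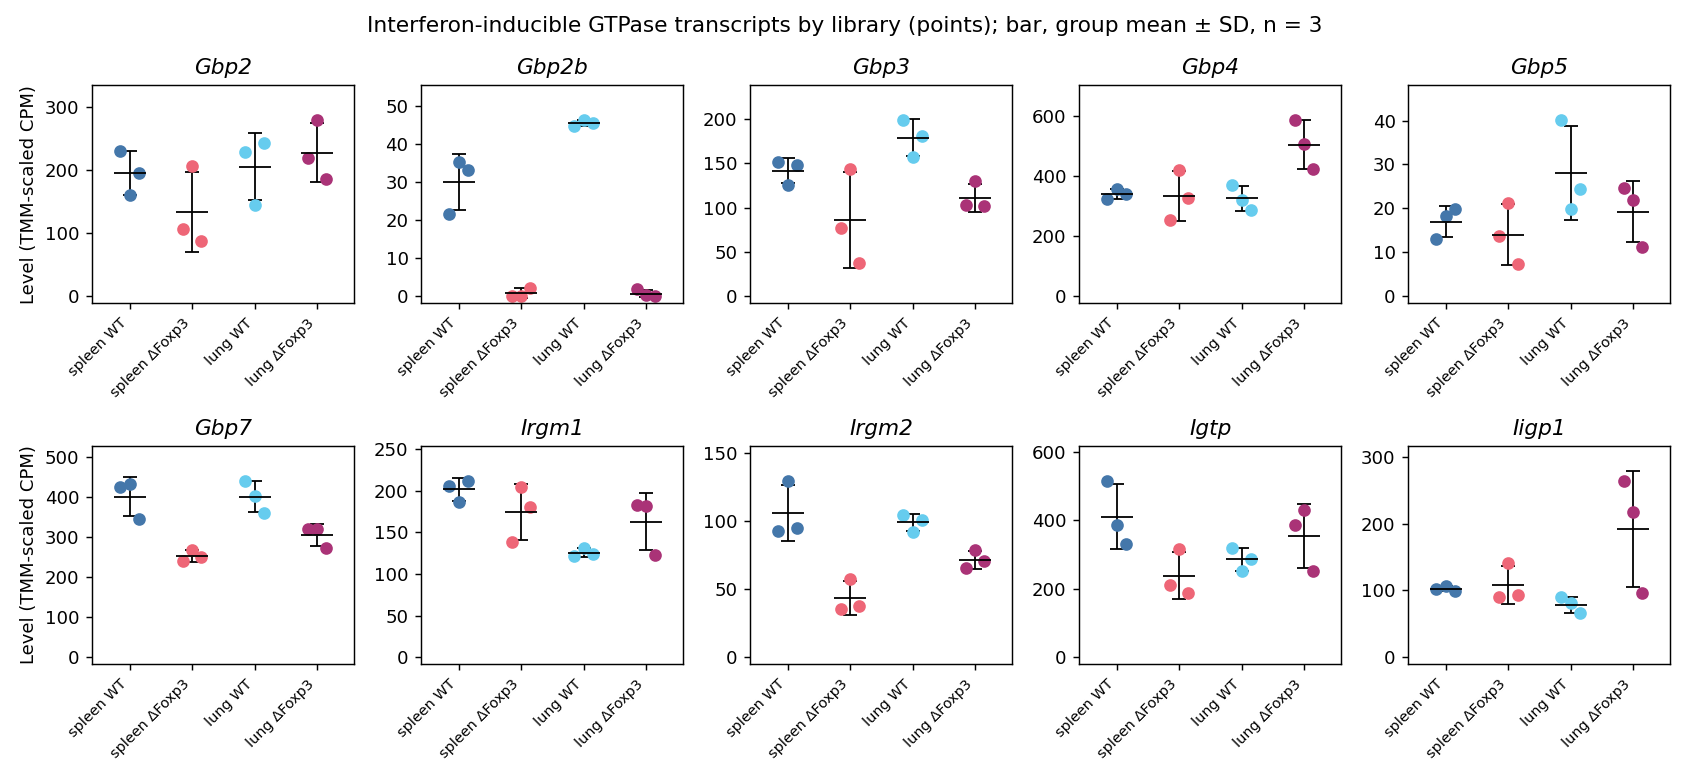
Level of each member (TMM-scaled CPM, vertical axis, starting at or just below 0) in every library (points, in label order within a group), with the group mean and SD (n = 3). Gbp2b is at or near 0 in both ∆Foxp3 groups, and the group means of Iigp1 and Gbp4 are highest in lung ∆Foxp3.

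In the spleen, 4 of the 10 members were lower in ∆Foxp3 than in WT Treg and 0 were higher; of all tested genes, 12.5% were called lower and 14.1% higher. The 4 were Gbp2b, Irgm2, Igtp and Gbp7, and they were also the members whose 3 ∆Foxp3 libraries all lay below the 3 WT libraries, as did 19.5% of all tested genes. The fitted change was negative for 9 of the 10 members, with a median of −0.61 on the log2 scale against −0.02 over all tested genes. A call means an adjusted p under 0.05 in edgeR's quasi-likelihood test, with Benjamini-Hochberg adjustment over the 13295 genes, and every adjusted p below is of that kind.

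Gbp2b, whose product is also known as murine GBP1, showed the widest change of the members. It stood at 21.5, 35.2 and 33.2 CPM in spleen WT and at 0, 0.239 and 2.28 CPM in spleen ∆Foxp3. The counts behind these levels were 194, 198 and 216 in WT and 0, 1 and 16 in ∆Foxp3, so that 1 library held nearly all of the remaining signal. Gbp2b fell by 4.88 ± 0.72 log2 units (SE) (adjusted p = 0.000262). Without that library the fitted difference was −7.76, a value that then rests on 1 count in the ∆Foxp3 group.

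Irgm2, a regulatory IRG of the Golgi and other host membranes, was at 92.9, 129 and 95.1 CPM in spleen WT and at 35.0, 57.5 and 37.4 in spleen ∆Foxp3. It fell by 1.29 ± 0.20 log2 units (adjusted p = 0.000332), with every ∆Foxp3 library far below the lowest WT library. Its neighbour Igtp, a regulatory IRG of the endoplasmic reticulum also called Irgm3, was at 514, 385 and 330 CPM in the WT libraries and at 211, 315 and 188 in the ∆Foxp3 libraries. Igtp fell by 0.78 ± 0.23 (adjusted p = 0.0208), and the highest ∆Foxp3 library lay just under the lowest WT library. The call on Igtp was lost without spleen WT 1 (adjusted p = 0.0975), spleen ∆Foxp3 1 (0.0902) or spleen ∆Foxp3 3 (0.0768), when the fit held the spleen groups alone (0.0548) and without the 3 libraries that stood apart (0.0662), and its adjusted p ran from 8.1e-05 to 0.0975 in all the fits tried.

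Gbp7, a GBP linked in macrophages to the assembly of the phagocyte oxidase, was at 426, 433 and 345 CPM in spleen WT and at 240, 268 and 250 CPM in spleen ∆Foxp3. It fell by 0.67 ± 0.14 log2 units (adjusted p = 0.00244), the smallest standard error of the 4.

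The other 6 members did not pass the test in spleen. Gbp2, which coats the vacuoles of Toxoplasma parasites, was at 231, 161 and 195 CPM in WT and 107, 206 and 87.0 in ∆Foxp3, a fitted difference of −0.56 ± 0.29 (adjusted p = 0.178). Gbp3 was at 151, 126 and 148 CPM in WT and 76.8, 144 and 37.3 in ∆Foxp3, a difference of −0.73 ± 0.33 (adjusted p = 0.124). In both genes the second ∆Foxp3 library lay within the WT range and the other ∆Foxp3 libraries below it. Without that library the difference was −1.01 for Gbp2 (adjusted p = 0.00893) and −1.32 for Gbp3 (adjusted p = 0.00213). Irgm1 (−0.21 ± 0.17), Gbp5, known for promoting inflammasome assembly (−0.29 ± 0.40), Gbp4 (−0.03 ± 0.18) and the effector IRG Iigp1 (0.08 ± 0.29) overlapped between the genotypes, with adjusted p-values from 0.415 to 0.93. The 95% interval of the difference ran from −0.41 to 0.35 for Gbp4, from −0.58 to 0.16 for Irgm1, from −0.53 to 0.69 for Iigp1 and from −1.15 to 0.57 for Gbp5.

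**Figure D3:**
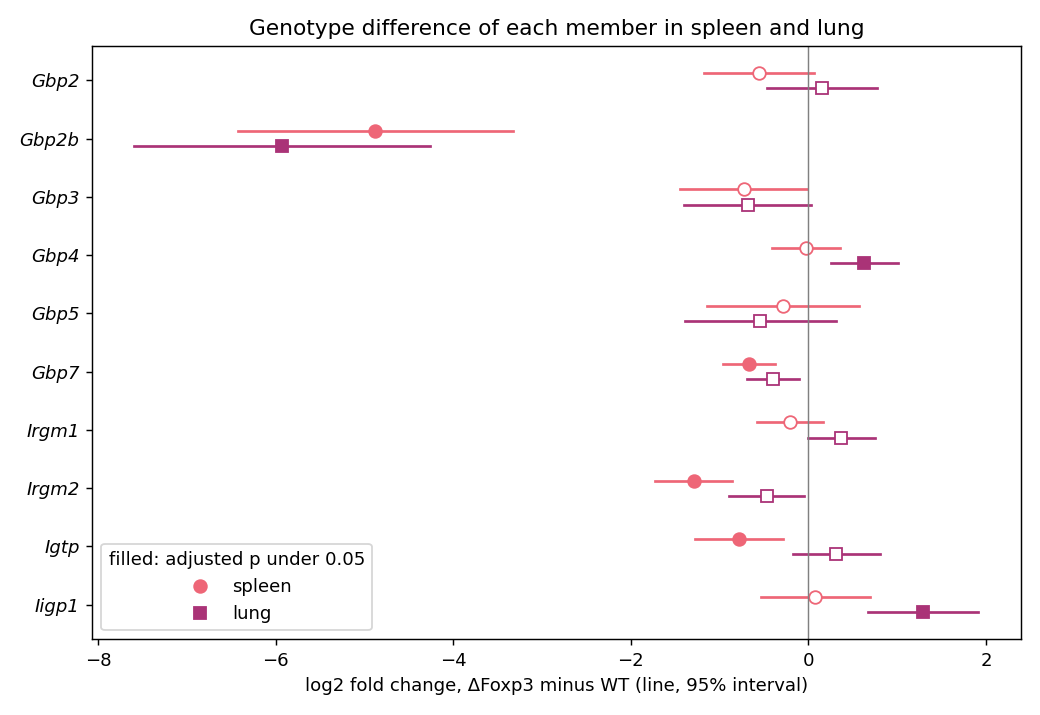
Fitted log2 difference, ∆Foxp3 minus WT, of each member in spleen (circles) and lung (squares) with its 95% interval; filled symbols passed at an adjusted p under 0.05. Gbp2b stands far to the left in both tissues, and the 2 filled symbols to the right of 0 are Gbp4 and Iigp1 in lung.

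In the lung, 1 of 10 members was called lower in ∆Foxp3 Treg (Gbp2b) and 2 were called higher (Iigp1 and Gbp4). Of all tested genes, 10.5% were called lower and 9.74% higher. The members' counts lie near these shares, and nothing about the members as a group is read from them. The ∆Foxp3 libraries all lay below the WT libraries for Gbp2b, Gbp3, Gbp7 and Irgm2 and all above for Gbp4 and Iigp1, and of all tested genes 22.2% lay all below and 23.2% all above. The median change of the 10 was −0.12 on the log2 scale, against −0.01 over all tested genes, with 5 of 10 negative.

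Gbp2b was even across the lung WT libraries, at 44.6, 46.2 and 45.5 CPM, and stood at 1.84, 0.395 and 0 CPM in lung ∆Foxp3. The ∆Foxp3 libraries held 8, 2 and 0 counts against 208, 179 and 260 in WT. Gbp2b fell by 5.93 ± 0.78 log2 units (adjusted p = 0.000192), and without lung ∆Foxp3 1 the fitted difference was −7.58, resting on 2 counts. Every ∆Foxp3 library of both tissues was thus at 2.28 CPM or less and every WT library at 21.5 CPM or more.

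Iigp1 was at 89.4, 81.0 and 65.6 CPM in lung WT and at 264, 217 and 96.0 in lung ∆Foxp3. It rose by 1.29 ± 0.29 on the log2 scale, or 2.45-fold (adjusted p = 0.00693). The third ∆Foxp3 library stood only just above the highest WT library, and over all alternatives the rise ran from 1.04 to 1.74 with adjusted p-values of at most 0.0354. Gbp4 was at 371, 319 and 288 CPM in the WT libraries and at 585, 505 and 423 in the ∆Foxp3 libraries. It rose by 0.63 ± 0.18, or 1.55-fold (adjusted p = 0.0227), and the call was lost without lung WT 2 (adjusted p = 0.065), lung WT 3 (0.0677) or lung ∆Foxp3 1 (0.0631), within a range of 0.0025 to 0.0677.

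Irgm2 and Gbp7, called in spleen, were not called in lung. Irgm2 was at 104, 92.1 and 101 CPM in WT and 65.2, 78.5 and 70.7 in ∆Foxp3, and Gbp7 at 441, 402 and 362 in WT and 321, 321 and 273 in ∆Foxp3. Both were lower in each ∆Foxp3 library without passing the test, by a fitted −0.47 ± 0.20 for Irgm2 (adjusted p = 0.109) and −0.40 ± 0.14 for Gbp7 (adjusted p = 0.0538). Gbp3 was likewise lower in each ∆Foxp3 library, with 198, 157 and 181 CPM in WT and 103, 129 and 102 in ∆Foxp3 (−0.69 ± 0.33, adjusted p = 0.164). Of 21 alternatives, Gbp7 passed in 7, Gbp3 in 5 and Irgm2 in 2.

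Igtp, in contrast, was at 319, 250 and 286 CPM in lung WT and 385, 428 and 250 in lung ∆Foxp3, overlapping, with a fitted difference of 0.31 ± 0.23 (adjusted p = 0.369). Irgm1 was at 121, 131 and 125 CPM in WT and 183, 182 and 123 in ∆Foxp3 (0.37 ± 0.18, adjusted p = 0.151). In both IRG genes the first and second ∆Foxp3 libraries lay above every WT library and the third did not, and Irgm1 passed without lung ∆Foxp3 3 (0.57, adjusted p = 0.0479). Gbp2 was at 229, 145 and 242 CPM in WT and 218, 279 and 186 in ∆Foxp3 (0.15 ± 0.29, adjusted p = 0.763), and Gbp5, at 40.1, 19.9 and 24.3 CPM in WT and 24.6, 21.9 and 11.3 in ∆Foxp3, differed by −0.54 ± 0.40 (adjusted p = 0.368). Both overlapped between the genotypes.

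The difference between the lung and the spleen genotype effects, which also carries the difference in allele if the sample labels hold, was tested as an interaction. It gave 0 calls among the 10 members in edgeR (DESeq2 0, limma voom 1), where 0.925% of all tested genes were called (123 genes, and 36 to 178 leaving out single libraries). At an unadjusted p under 0.05 there were 5 members, Igtp, Iigp1, Irgm2, Gbp4 and Irgm1, each with a more positive effect in lung (3.37% of all tested genes did so). Igtp had the smallest p of the 5, with a difference of 1.10 ± 0.33 on the log2 scale (95% interval 0.40 to 1.79, adjusted p = 0.186). For Iigp1 it was 1.21 ± 0.41 (interval 0.34 to 2.08, adjusted p = 0.28) and for Irgm2 0.82 ± 0.28 (interval 0.22 to 1.42, adjusted p = 0.296). All 4 IRG members were thus among the 5, with Gbp4 at 0.66 ± 0.25 and Irgm1 at 0.58 ± 0.25 (adjusted p = 0.383 and 0.469). After adjustment Igtp and Iigp1 passed without the low-count filter (adjusted p = 0.000793 and 0.001225), Irgm2 with voom (0.0367) and Iigp1 without lung ∆Foxp3 3 (0.0344) or without all libraries that stood apart (0.0377).

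Between the WT tissues, Irgm1 was the 1 member called. It was at 206, 187 and 212 CPM in spleen WT and at 121, 131 and 125 CPM in lung WT, separate groups with little spread. Irgm1 was lower in lung by a log2 difference of −0.68 ± 0.18 (adjusted p = 0.0413), where 1.03% of all tested genes were called lower and 3.1% higher (549 genes in all, and 281 to 693 leaving out single libraries). The call was lost in 10 of 21 alternatives, among them 8 of the 12 fits that left out 1 library, with values from −0.76 to −0.61 and adjusted p-values from 0.00712 to 0.132. Between the ∆Foxp3 tissues, 0 members were called (DESeq2 0, limma voom 2), where 0.722% of all tested genes were (96 genes, and 42 to 152 leaving out single libraries). At an unadjusted p under 0.05 there were 5, Gbp2, Gbp4, Irgm2, Igtp and Iigp1, all higher in lung by 0.58 to 0.83 on the log2 scale, as were 4.93% of all tested genes. Without spleen ∆Foxp3 2, Gbp2, Gbp4 and Irgm2 passed (adjusted p = 0.0287, 0.0404 and 0.0242), and Iigp1 passed without lung ∆Foxp3 3 (0.026). In both genotypes tissue and dissociation cannot be told apart, and the ∆Foxp3 values carry the difference in allele as well.

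Members that followed each other most closely over the 12 libraries were Gbp2 and Igtp, Gbp7 and Irgm2, and Gbp4 and Iigp1. Likeness was measured as the root mean square difference of log2(CPM + 1) after centring each gene on its mean, and came to 0.298, 0.305 and 0.312 for these pairs, whereas Gbp2b and Iigp1, the least alike pair, were 2.67 apart. Of the genes outside the 10, the nearest to the members' mean profile were Eif4a2 (0.133), Ncoa3 (0.154) and Zbp1 (0.161), the last an interferon-inducible sensor of nucleic acids. Gbp2b had the widest centred values of the members (−2.95 to 2.61) and so weighs most in that mean. Eif4a2, Ncoa3 and Zbp1 were lower in lung ∆Foxp3 (fitted −0.60, −0.53 and −0.74), whereas 5 of the 10 members had a positive fitted change there. Gbp6 was nearest to Gbp4 (0.168) and Ifi47, another IRG gene, second nearest to Igtp (0.187) behind Tmco3 (0.166). Of the 38-base words of Gbp4 transcripts, 5.09% also occur in Gbp6, and the part of shared reads in that likeness was not tested. Slc28a2b was nearest to Gbp2b (0.629), Cttn to Iigp1 (0.301) with the IRG gene Tgtp1 next (0.348), and Cd2 to Gbp7 (0.0928). These values rest on the same 12 libraries and describe likeness of pattern and nothing more.

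The remaining genes of the GTPase families moved in both directions. Of 26 other genes listed, GBP, IRG and very large GTPases together with Mx1 and Mx2, 25 were in the table and 21 were tested. In spleen ∆Foxp3 5 were lower and 1 higher, and in lung ∆Foxp3 5 lower and 2 higher (3 lower and 5 higher without the libraries that stood apart). Their median change was −0.55 in spleen and −0.24 in lung. Gm1966, listed here with the very large GTPases, fell in both tissues (by 1.74 ± 0.22, adjusted p = 6.2e-05, and by 1.62 ± 0.22, adjusted p = 0.000214). Gbp11, whose transcripts share 38-base words with Gbp3, Gbp4 and Gbp7, rose in spleen from 1.13 to 13.7 CPM as group means (3.69 ± 1.13, adjusted p = 0.03) and in lung from 2.65 to 25.9 CPM (3.30 ± 1.07, adjusted p = 0.0471), where the third ∆Foxp3 library, at 2.67 CPM, overlapped WT. F830016B08Rik, an IRG gene, rose in lung by 2.44 ± 0.54 (adjusted p = 0.00619) and differed in spleen by 0.43 (adjusted p = 0.583). Mx2, a dynamin-like GTPase gene of the antiviral Mx family, was at 41.4, 16.2 and 12.8 CPM in lung WT and at 0.230, 1.58 and 0 CPM in lung ∆Foxp3, and fell by 5.16 ± 1.22 (adjusted p = 0.0111). Within 500 kb of the GBP cluster on chromosome 3, 4 other genes were tested and 0 were called in either tissue. Within the same distance of Iigp1 on chromosome 18, 3 of 11 tested genes were higher in lung, F830016B08Rik, Smim3 (3.08, adjusted p = 0.00054) and Synpo (1.32, adjusted p = 0.0274), and in spleen 1 was higher, Smim3 (2.99, adjusted p = 0.00032), and 1 lower, Rps14; these neighbours are named after their values were seen. Around Gbp4 on chromosome 5, 3 of 11 were lower and 1 higher in spleen and 1 higher in lung. Around Irgm1, 3 of 14 were lower in each tissue, and around Igtp and Irgm2, 2 of 11 were lower in spleen and 1 in lung. Of these neighbours, 5 around Gbp4, 6 around Irgm1, 3 around Iigp1 and 1 around Igtp and Irgm2 are among the other GTPases counted above. Of all tested genes, 12.5% were called lower and 14.1% higher in spleen, and 10.5% and 9.74% in lung. Nothing about the neighbours is read from their counts. Gbp3 and Gbp2, the members at either side of Gbp2b, did not pass the test in either tissue.

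Upstream in the pathway, 5 of 8 tested ligand and receptor genes were lower and 1, Ifng, was higher in each tissue (3 lower in lung without the libraries that stood apart). The 5 lower genes were Ifnar1, Ifnar2, Ifngr2, Il10rb and Il6st in each tissue. Il10rb, Il6st and Il27ra are in the list but are not chains of the interferon gamma or type I receptors. Ifng, the gene of interferon gamma, was at 3.77, 0.711 and 0.768 CPM in spleen WT and 10.4, 11.0 and 2.57 in spleen ∆Foxp3, overlapping, and at 2.14, 1.29 and 4.20 in lung WT and 22.3, 46.0 and 64.9 in lung ∆Foxp3, fully separated. The log2 rise was 2.07 ± 0.69 in spleen (adjusted p = 0.04) and 4.07 ± 0.71 in lung (adjusted p = 0.00137). The receptor chain Ifngr2 was lower, with log2 differences of −1.28 ± 0.27 in spleen (adjusted p = 0.0032) and −1.06 ± 0.28 in lung (adjusted p = 0.0154), while Ifngr1 differed by 0.15 ± 0.31 and 0.07 ± 0.31 (adjusted p = 0.769 and 0.904). Both type I receptor chains were lower in both tissues: Ifnar1 fell by 1.07 ± 0.13 in each (adjusted p = 4.9e-05 and 9.4e-05), and Ifnar2 fell by 1.09 ± 0.25 in spleen (adjusted p = 0.00542) and 0.79 ± 0.25 in lung (adjusted p = 0.04).

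Of 16 transducers and transcription factors tested, 5 were lower and 1 higher in spleen, and 6 lower and 2 higher in lung (5 and 0 in spleen and 2 and 2 in lung without the libraries that stood apart). Stat2 and Irf9, members of the type I complex, were lower in both tissues, Stat2 by 0.70 ± 0.16 in each (adjusted p = 0.00486 and 0.00711) and Irf9 by 1.21 ± 0.18 and 1.14 ± 0.18 (adjusted p = 0.000174 and 0.000498). Irf1 differed by −0.32 ± 0.15 in spleen (adjusted p = 0.136) and 0.27 ± 0.15 in lung (adjusted p = 0.246). Jak1 fell in lung by 0.64 ± 0.15 (adjusted p = 0.00897) and Jak2 rose in both tissues (0.69 ± 0.21, adjusted p = 0.0263, and 0.82 ± 0.21, adjusted p = 0.0142).

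Of 11 listed signalling inhibitors, 3 were lower and 2 higher in spleen and 2 lower and 1 higher in lung (1 lower in lung without the libraries that stood apart). Those called higher were Ptpn11 and Cish in spleen and Cish in lung, and neither is specific to the interferon pathway. Cish rose by 0.59 ± 0.15 in spleen (adjusted p = 0.0105) and 2.05 ± 0.16 in lung (adjusted p = 2.3e-06). Usp18, which switches off the type I receptor, was lower by a log2 difference of −3.16 ± 0.43 in spleen (adjusted p = 0.000164) and −3.40 ± 0.45 in lung (adjusted p = 0.000256). Socs1, which blocks the Jak kinases, differed by −0.66 ± 0.27 and 0.52 ± 0.28 (adjusted p = 0.0876 and 0.211). In the same libraries, 24 of 33 tested type I response genes without GTPase function were lower and 0 higher in spleen, and 24 lower and 0 higher in lung (12 lower in lung without the libraries that stood apart), with medians of −1.13 and −1.34. Of 22 tested interferon gamma response genes, 0 were lower and 2 higher in spleen (6 higher without those libraries) and 0 lower and 5 higher in lung, with medians of 0.18 and 0.27. The 2 in spleen were H2-Aa and H2-Ab1 (adjusted p = 0.0468 and 0.0482). Beside all these list counts, 12.5% of all tested genes were called lower and 14.1% higher in spleen, and 10.5% and 9.74% in lung. Nothing about the interferon gamma list is read from its counts. The members' medians of −0.61 and −0.12 lay between those of the type I and the interferon gamma lists in both tissues. The lists were chosen with earlier results of these data known, and the 2 lists' difference from the members was not tested.

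**Figure D4:**
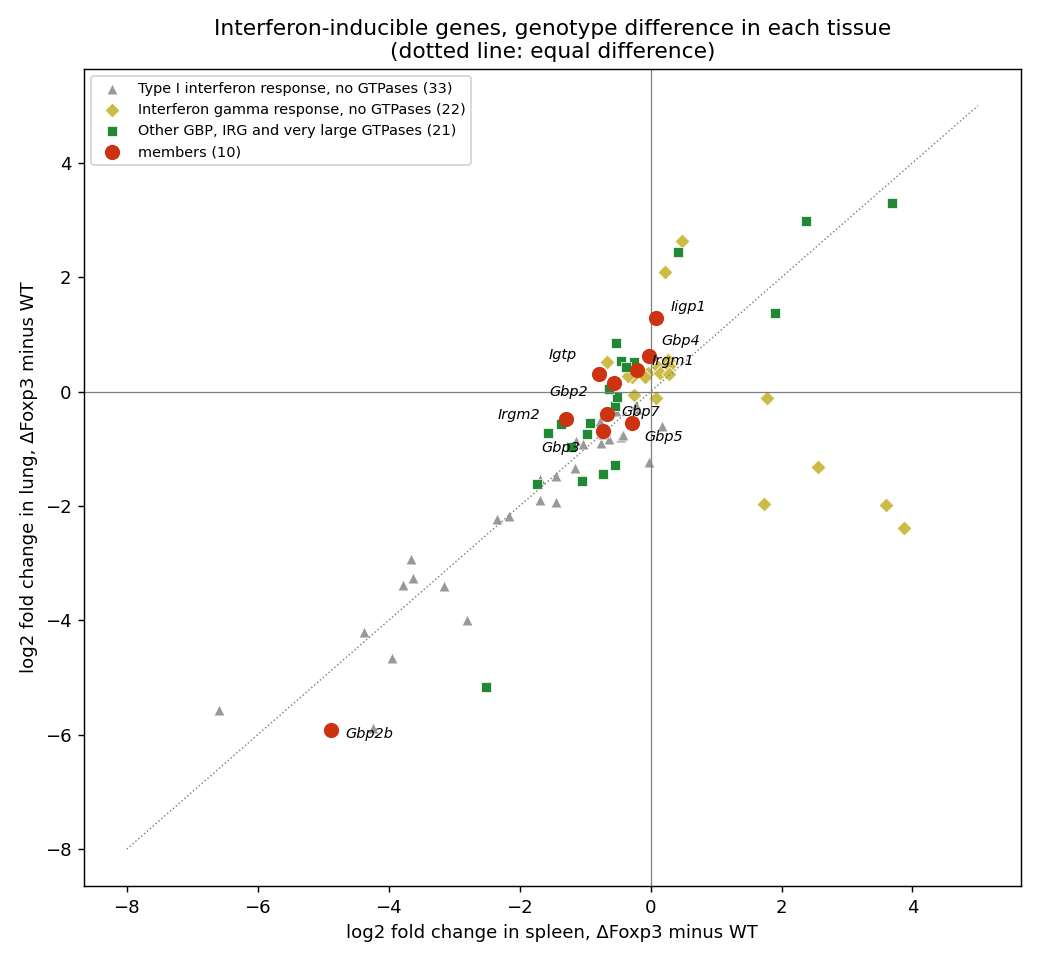
Log2 difference, ∆Foxp3 minus WT, in spleen (horizontal) and lung (vertical) for the 10 members (red circles, named), the other listed GTPases with Mx1 and Mx2 (green squares), type I response genes (grey triangles) and interferon gamma response genes (yellow diamonds). Gbp2b lies far down among the type I response genes, and Iigp1 and Gbp4 lie above 0 in lung and near 0 in spleen.

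**Figure D5:**
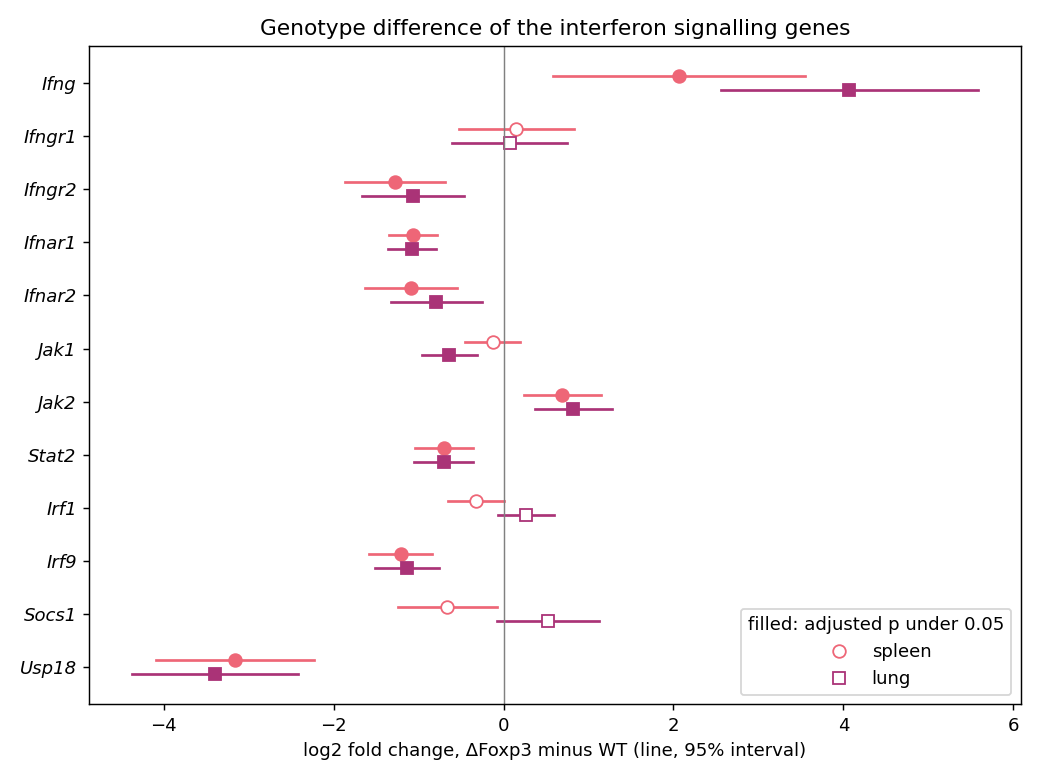
Fitted log2 difference, ∆Foxp3 minus WT, of 12 interferon signalling genes in spleen (circles) and lung (squares) with 95% intervals; filled symbols passed at an adjusted p under 0.05. Ifng and Jak2 are higher, and Ifngr2, Ifnar1, Ifnar2, Stat2, Irf9 and Usp18 lower, in both tissues.

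Of 24 tested genes whose proteins act with GBP and IRG at membranes, 4 were lower and 5 higher in spleen, and 3 lower and 2 higher in lung (2 lower in spleen and 1 in lung without the libraries that stood apart). Of all tested genes, 12.5% were called lower and 14.1% higher in spleen, and 10.5% and 9.74% in lung. Nothing about the 24 genes as a group is read from their counts. Casp1, the inflammasome protease, was at 11.1, 11.9 and 5.37 CPM in spleen WT and 92.7, 107 and 126 in spleen ∆Foxp3, and rose by 3.52 ± 0.29 (adjusted p = 2.5e-06). In lung Casp1 rose by 3.12 ± 0.29 (adjusted p = 9.2e-06). Casp4, the caspase that senses bacterial lipopolysaccharide, rose by 2.48 ± 0.31 in spleen and 2.83 ± 0.32 in lung (adjusted p = 4.5e-05 and 4.7e-05). Map1lc3b, an autophagy protein gene, fell in lung by 0.74 ± 0.16 (adjusted p = 0.00445).

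Macrophages and endothelium also make these GTPases, and markers of other cell types were measured beside the members. The 10 markers of macrophages, monocytes and dendritic cells summed to 353 to 492 CPM in spleen WT and 249 to 434 in spleen ∆Foxp3. In lung the sum was 260 to 506 in WT and 160 to 250 in ∆Foxp3. Ctss made up most of it, with means of 363 and 223 CPM in spleen WT and ∆Foxp3. Clec9a was at 0 in each library, Fcgr1 in lung WT and Cd14 in lung ∆Foxp3. Csf1r was at 28.5, 27.0 and 9.06 CPM in spleen WT and 109, 13.1 and 49.7 in spleen ∆Foxp3. Spleen means were also higher in ∆Foxp3 for Adgre1 (7.14 and 12.8), Cd68 (9.78 and 17.4), Cd14 and Xcr1. They were lower for Lyz2, Itgam and Fcgr1. Of 7 tested, 1 was lower (Ctss) and 1 higher (Xcr1) in each tissue. Between tissues, 1 of the 7 was lower in lung WT than in spleen WT (Adgre1, group means 0.644 and 7.14 CPM) and 2 were lower in lung ∆Foxp3 than in spleen ∆Foxp3 (Csf1r, 0.0741 and 57.4 CPM, and Adgre1, 0.0765 and 12.8 CPM). The 7 endothelial markers summed to 442 to 491 CPM in spleen WT and 388 to 493 in lung WT against 92.3 to 160 and 117 to 130 in the ∆Foxp3 groups, with 2 of 3 tested lower in each tissue. Those were Pecam1 and Ly6c1, which T cells can also express and which made up nearly all of the sum. Pecam1 averaged 304 and 119 CPM in spleen WT and ∆Foxp3 and 296 and 111 in lung, and Ly6c1 167 and 8.15 in spleen and 124 and 9.36 in lung. Cdh5, Kdr, Tek, Vwf and Cldn5, the other 5, were at 6.47 CPM or less in every library, with Cldn5 at 0 in both spleen groups. The 8 markers of B and plasma cells, mostly Ighm, summed to 1119 to 1290 CPM in spleen WT and 1935 to 1970 in lung WT against 78.1 to 159 and 133 to 262 in ∆Foxp3, with 2 of 4 tested lower in each tissue, with Ms4a1 at 0 in spleen WT, Pax5 in spleen ∆Foxp3 and Jchain in both lung groups. Hemoglobin genes took 0.181% to 0.452% of counts in lung WT and at most 0.0359% in the other libraries. Of 6 erythroid and platelet markers tested, 4 were higher in lung WT than in spleen WT and 3 were lower in lung ∆Foxp3 than in lung WT. Of 4 lung epithelial markers tested, 3 were lower (Sftpc, Scgb1a1 and Epcam) and 1 higher (Cdh1) with genotype in lung, 1 lower (Epcam) and 1 higher (Cdh1) in spleen, and 1, Sftpc, was higher in lung WT than in spleen WT. Of 2 fibroblast and smooth muscle markers tested, 1, Fn1, was higher in ∆Foxp3 in both tissues. Of 4 CD8 T cell and NK cell markers tested, 1, Klrk1, was higher in lung ∆Foxp3 (14.4 CPM as the group mean) than in lung WT (0.344) and spleen ∆Foxp3 (0.583), with Ncr1 at 0 in every library. The part of these other transcripts in the genotype and tissue differences of the members was not tested.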

How the data were processed

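RNA of 12 libraries (4 groups of 3, from GEO's labels) was counted per gene by the authors, who deposited raw read counts, whole numbers per gene symbol, in 1 table of 55011 genes. The submitters' processing notes list Subread 2.0.0, featureCounts, STAR 2.7.3a and mm10, without roles; annotation, strand setting and handling of shared reads are not given there. Counts were tested as deposited with edgeR 4.0.16 in R 4.3.3 (quasi-likelihood, robust, TMM, default low-count filter by group), with the group as the only term over all 12 libraries. The tests were two-sided contrasts, ∆Foxp3 minus WT per tissue, lung minus spleen per genotype and their interaction. The test was checked on simulated counts. Positions came from GENCODE M21 (52936 symbols matched) and promoters from RefSeq (GRCm38.p6). Members, lists and alternatives were chosen with earlier results of these data known. Named genes were all members, the genes that carry the interferon signal, and up to 4 called genes per list, with fewer printed; some genes under this rule are not reported here, though list counts and sums include them. Alternatives were RLE factors, library totals, other filters, DESeq2 1.42.0, limma 3.58.1 voom, only the groups compared, a replicate block, leaving out each library and leaving out the 3 libraries that stood apart. Library pairs of a group differed by more than sampling noise, so none was counted as a duplicate.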

Additional observations from a re-analysis of the deposited data

How the results depend on the processing

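Of the called members, Gbp2b in both tissues, Gbp7 and Irgm2 in spleen and Iigp1 in lung passed under all 21 alternatives, and Igtp in spleen and Gbp4 in lung lost the call in 5 and 3 of them. Members called in lung rose from 3 to 6 with limma voom and to 6 with only the groups compared in the fit. Between WT tissues the count of 1 became 2 without the low-count filter, 0 with the replicate block and 0 without the libraries that stood apart. Between ∆Foxp3 tissues the count of 0 became 2 without the filter, 2 with voom and 1 without the libraries that stood apart, and for the interaction 0 became 2, 1 and 1. Leaving out each library in turn gave 3 to 6 members called in spleen, 2 to 5 in lung (5 without spleen ∆Foxp3 2), 0 to 1 between WT tissues, 0 to 3 between ∆Foxp3 tissues (3 without spleen ∆Foxp3 2) and 0 to 1 for the interaction (1 without lung ∆Foxp3 3). The spleen count was 6 without spleen ∆Foxp3 2 and 6 without the low-count filter.

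Of the differences refitted (all 10 members by genotype, 2 between WT tissues, 5 between ∆Foxp3 tissues and 5 for the interaction), 5 turned sign, each without a call. Gbp4 in spleen became 0.0007 with RLE factors, 0.0006 with DESeq2 and ran from −0.2239 to 0.1661 without single libraries, above 0 in 8 of the 12. Iigp1 in spleen became −0.0597 with voom and −0.1539 without spleen ∆Foxp3 2 (up to 0.2206 without other single libraries), Gbp5 in spleen 0.0436 without spleen ∆Foxp3 3 (down to −0.7062), Gbp2 in lung −0.018 without lung WT 2 (up to 0.3217), and Gbp5 in lung 0.0966 without the libraries that stood apart. The causes were not tested.

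Deviations from the group means over all tested genes were correlated between same-numbered libraries, and the 18 correlations ran from −0.092 to 0.096. Such deviations also carry traits of single libraries, such as those that stood apart. The correlations therefore cannot exclude that same-numbered libraries shared a mouse, litter or day, on which the labels are silent. With the replicate number as a block, Irgm1 between WT tissues lost its call (adjusted p = 0.0587) and Gbp7 in lung gained one (0.049), and no other call on a member changed. Over all genes, calls in spleen went from 3540 to 2271 with only the groups compared, and in lung from 2686 to 4598 with voom, 1321 without the libraries that stood apart and 1457 to 3362 leaving out single libraries (lowest without lung ∆Foxp3 3, and 1554, 1596 and 1692 without lung WT 2, lung ∆Foxp3 2 and lung WT 1). Between WT tissues 549 became 957 without the filter, 1046 with DESeq2 and 1046 with voom, and between ∆Foxp3 tissues 96 became 292, 235 and 228. For the interaction 123 became 363, 304 and 190, and 74 with the block. Between WT tissues the count was 281, 320 and 325 without lung WT 3, spleen WT 2 and lung WT 2; between ∆Foxp3 tissues it was 152 without spleen WT 1, 42 without spleen ∆Foxp3 1, and 59, 48 and 43 without lung ∆Foxp3 1, 2 and 3. For the interaction it was 36, 69 and 54 without lung ∆Foxp3 1, 2 and 3, 48 without spleen ∆Foxp3 1, 52 and 68 without lung WT 3 and 2, and 72 without spleen WT 2. With library totals in place of TMM, 41.3% of calls between WT tissues were lower, against 24.9% with TMM. Depth limits Gbp2b most, whose ∆Foxp3 groups held 17 and 10 counts in all.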
